A study of Xenopus tropicalis with 2 samples.

Results

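The spinal cord progenitors of the regenerating Xenopus tropicalis tail were the cells that the depositors' table of neural cells names Spinal Cord Progenitor. They were matched to the 2 deposited count matrices by cell barcode and condition. The label marked 344 of the 1075 cells in the neural table, and of the 3707 cells called in the series. Of these, 71 of 295 neural cells came from tails 24 hours after amputation (24hpa) and 273 of 780 came from uninjured tails.

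Neural progenitors of the spinal cord line its central canal, keep transcription factors of the SoxB1 family such as Sox2 switched on, divide, and give rise to neurons and glia. Many carry a motile cilium that moves the fluid of the canal, as the ependymal cells of later stages do. In tadpoles the cord regrows with the tail after amputation, from progenitors in the stump.

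GFP-positive cells were sorted from tails of tadpoles of a transgenic line that carries pax6:GFP together with cryga:RFP and actc1:RFP, in which pax6 regulatory sequence drives the sorted marker, and were taken through droplet single-cell RNA sequencing. For the 24hpa library the end of the tail was cut at NF stage 41, 3 days after fertilization, and the tissue regrown over the next 24 hours was collected. For the uninjured library the tail tips of intact stage 41 tadpoles were collected. Tissue from several tadpoles went into each pool, and the carriers of both pools held 1 copy of the transgene, since they came from a cross to wild type. With 1 library per group, amputation, the day of age between the groups, the piece of tail taken and the library cannot be told apart, and no difference between the groups was tested. Each level below is the sum of unique molecular identifiers (UMIs, 1 per captured RNA molecule) of a gene over the cells named, scaled so that those cells' UMIs total 1000000 (CPM), and each log2 ratio is given with a 95% interval that covers counting error alone.

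The 24hpa library held 32798976 UMIs with 1090 called cells, and the uninjured library 48622597 UMIs with 2617 called cells. Called cells held 49.1% of the UMIs at 24hpa and 54.2% in the uninjured library, and 1 called barcode occurred in both. A doublet caller marked 4 cells at 24hpa and 8 in the uninjured library, 0 of them progenitors. The progenitors gave 1239094 UMIs at 24hpa and 2390677 in uninjured tails, with a median per cell of 14090 UMIs (range 3195 to 47174) at 24hpa and 7739 (range 2677 to 31408) in uninjured tails. Other neural cells had a median of 7509 UMIs at 24hpa and 7180 in uninjured tails, so the greater depth at 24hpa was found in the progenitors more than in their neural neighbours. Free RNA was read from barcodes with at most 100 UMIs. From 20 muscle and blood genes, free RNA was estimated to make up 1.94% of the progenitors' UMIs at 24hpa and 8.69% in uninjured tails. Its level of a gene is given below where it bears on a value. That level is in CPM of free RNA's own UMIs, and only the estimated share of it would enter the level in progenitors.

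The label was first set against its own markers. sox2, the transcription factor that maintains neural progenitors, stood at 646 CPM in 24hpa progenitors and 575 CPM in uninjured progenitors, against 71.0 CPM in other neural cells at 24hpa and 212 CPM in other neural cells of uninjured tails. A UMI of sox2 was found in 98.6% of 24hpa progenitors and 94.5% of uninjured progenitors, or 94.9% and 89.9% once cells were thinned, that is, reduced by a random draw to 5000 UMIs each, which 64 progenitors at 24hpa and 230 in uninjured tails were deep enough for. Skeletal muscle cells should lack sox2 and had median depths of 16552 UMIs at 24hpa and 9553 in uninjured tails. Thinned alike, they showed it in 0% of 49 cells at 24hpa, which allows a share of up to 6.12%, and in 2.96% of 377 cells in uninjured tails. sox2 also helped the depositors to choose the neural clusters, and it did not separate the progenitors from 2 of the other clusters. Floor Plate cells had 544 CPM at 24hpa and 549 CPM in uninjured tails, and the cluster named Dopaminergic Neurons had 554 and 585 CPM.

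The other 3 markers were scarcer. bmp5, a secreted BMP ligand, was at 24.2 CPM in 24hpa progenitors and 13.8 CPM in uninjured progenitors, against 2.46 CPM in other neural cells at 24hpa and 0 UMIs in those of uninjured tails, which allows up to 0.692 CPM. fbxo5, an inhibitor of the anaphase-promoting complex that is made in dividing cells, was at 13.7 CPM in 24hpa progenitors and 25.9 CPM in uninjured ones. sp5l, an Sp-family factor of the Wnt response, was at 6.46 CPM (8 UMIs) in 24hpa progenitors and 34.7 CPM (83 UMIs) in uninjured ones, a log2 ratio of -2.43 (95% interval -3.69 to -1.38). Thinned to 5000 UMIs, 2.02% of 24hpa progenitors and 11.2% of uninjured progenitors had a UMI of sp5l (7.04% and 14.7% before thinning), against 0.126% and 1.38% of skeletal muscle cells. All 4 markers were higher in progenitors than in the pooled other neural cells of the same library.

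Markers of other cell types were low in some lists and high in others. Those of neurons, 15 matched genes, summed to 474 CPM in 24hpa progenitors and 742 CPM in uninjured ones, against 21093 and 12254 CPM in other neural cells. Skeletal muscle markers (10 genes) summed to 819 CPM at 24hpa and 2926 CPM in uninjured tails, while free RNA held 42193 and 33512 CPM of them. Blood markers were at 0.807 CPM at 24hpa, with 9 of 10 genes at 0, and at 46.0 CPM in uninjured tails. Of the other lists, markers of immune cells, of endothelium and of neural crest each summed to at most 13.8 CPM in both libraries, those of floor plate to 136 CPM at 24hpa and 156 CPM in uninjured tails, and those of mesenchyme to 93.6 and 215 CPM. The notochord list (8 genes) was high, at 6404 CPM in 24hpa progenitors and 4441 CPM in uninjured ones, against 799 and 1836 CPM in other neural cells, and 6288 and 4056 CPM of it were the keratin krt18. The list of epidermis and secretory cells (8 genes) summed to 4124 and 3697 CPM in progenitors, against 545 and 1240 CPM in other neural cells, and 3891 and 3287 CPM of it were krt8, another keratin. Of the defining notochord genes, t had 0 UMIs at 24hpa and 14.6 CPM in uninjured tails, and of the epidermal ones tp63 had 0 UMIs and 0.418 CPM. The notochord homeobox gene not was found in 8 of 71 progenitors (24 UMIs) at 24hpa and 43 of 273 (112 UMIs) in uninjured tails.

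Cilium genes and replication genes set the progenitors apart from neurons. Of 5627 genes with at least 50 UMIs in the neural cells of each library, 657 (11.7%) were at least 2-fold higher in progenitors than in the pooled other neural cells of both libraries, and 995 (17.7%) were at least 2-fold lower. Against those shares, 27 of the 31 motile cilium genes compared were at least 2-fold higher in both libraries and 0 were lower, with a median log2 ratio of 3.90 at 24hpa and 2.11 in uninjured tails, where the median over the genes compared was -0.26 and -0.11. The same held for 34 of 35 DNA replication genes and 21 of 25 mitosis genes, while 14 of 16 proneural and early neuronal genes and 13 of 13 neuronal markers were at least 2-fold lower. Cells were clustered on expression, so these ratios describe the clusters and do not test them.

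The cilium genes covered the parts of the axoneme and its regulators. Summed over the 41 matched genes they reached 5473 CPM in 24hpa progenitors and 4028 CPM in uninjured ones, against 628 and 1139 CPM in other neural cells. daw1, an assembly factor for outer dynein arms, stood at 443 CPM in 24hpa progenitors and 246 CPM in uninjured ones. foxj1, the transcription factor that directs motile ciliogenesis, was at 125 CPM at 24hpa and 82.8 CPM in uninjured tails. The programme was not particular to the progenitors: the Floor Plate cluster, with 1 cell at 24hpa and 23 in uninjured tails, held 6623 CPM and 4076 CPM of the same genes. The cluster named Dopaminergic Neurons held 1809 CPM at 24hpa and 1772 CPM in uninjured tails, and Differentiating Neuron cells 774 and 1317 CPM. In the clusters of motor neurons and interneurons the sum was between 360.3 and 615 CPM in either library.

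**Figure D1:**
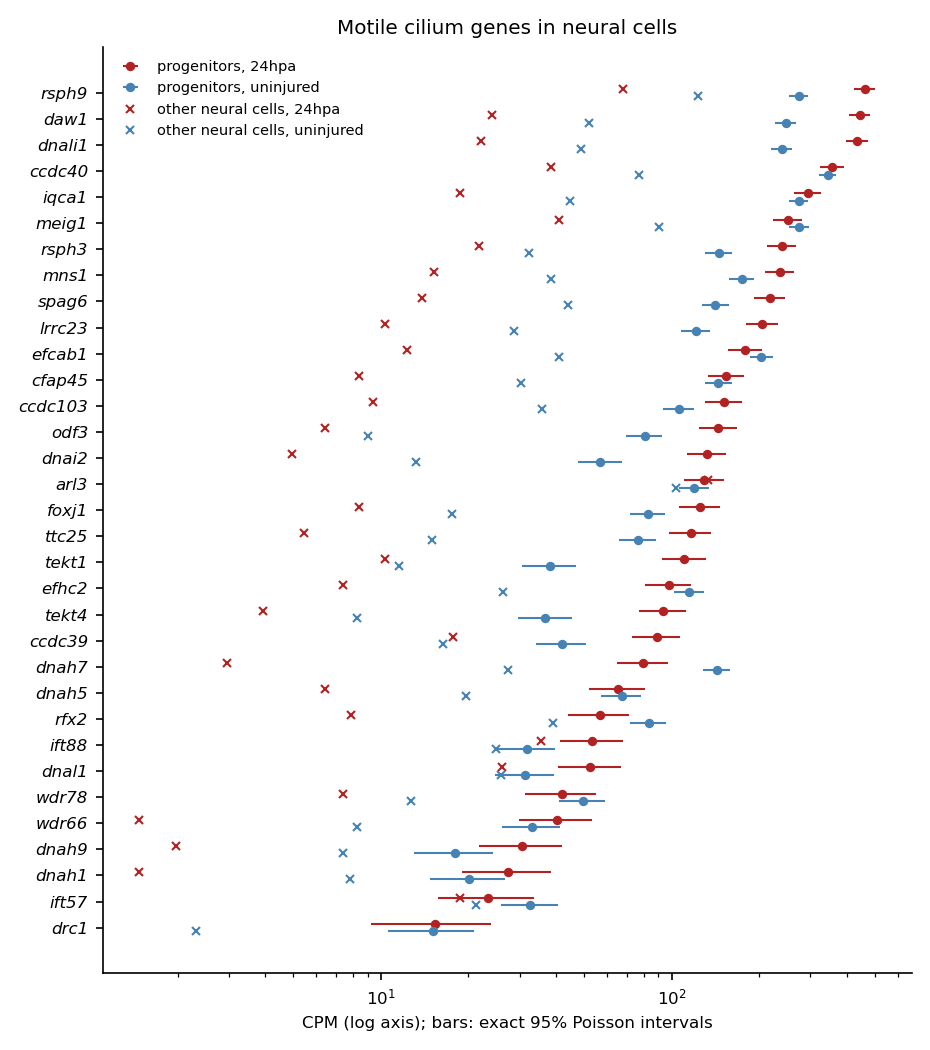
Level of motile cilium genes in CPM on a log axis, 1 row per gene, in progenitors and in other neural cells of the 24hpa and uninjured libraries, with 95% counting intervals on the progenitors' values. The progenitors lie to the right of other neural cells for most genes, as with daw1 at 443 and 246 CPM, and a point is left out where no UMI was found.

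Ranked by the smaller of their ratios in the 2 libraries, the 10 genes furthest above other neural cells included another of the cilium list, odf3, named for the outer dense fibre of sperm tails, at 144 CPM in 24hpa progenitors and 80.7 CPM in uninjured ones, against 6.40 and 9.00 CPM in other neural cells. vwc2l.2, a secreted protein of the BMP-binding von Willebrand C family, had 515 and 778 CPM in progenitors, against 8.38 and 93.4 CPM in other neural cells. rrm2.2, a subunit of the reductase that makes deoxynucleotides, had 318 and 773 CPM in progenitors, against 10.8 and 97.8 CPM. ngfr, the p75 neurotrophin receptor, had 70.2 and 90.4 CPM in progenitors, against 8.38 and 10.6 CPM, but free RNA held 71.2 and 55.0 CPM of it. At the other end, tac1, which encodes the substance P precursor, was at 20.2 CPM in 24hpa progenitors and 23.0 CPM in uninjured ones, against 8953 and 1275 CPM in other neural cells.

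The phase calls deposited with the cells put most progenitors in S. They gave S to 44 of 71 progenitors (62.0%) at 24hpa and to 178 of 273 (65.2%) in uninjured tails, a difference of -3.23 percentage points (95% interval -16.1 to 8.69). G2M was called in 17 of 71 (23.9%) at 24hpa and 75 of 273 (27.5%) in uninjured tails, a difference of -3.53 points (-13.6 to 8.62). G1 was called in 10 of 71 (14.1%) at 24hpa and 20 of 273 (7.33%) in uninjured tails, a difference of 6.76 points (-0.514 to 17.0). Each of these intervals, which cover counting error alone, includes 0. Among Differentiating Neuron cells, for comparison, S was called in 4 of 31 at 24hpa and 39 of 155 in uninjured tails. In Floor Plate, S was called in 11 and G2M in 10 of 23 uninjured cells, and its 1 cell at 24hpa was called G2M.

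Depth moved with phase. Cells called G2M had a median of 20075 UMIs at 24hpa and 8176 in uninjured tails, those in S 15960.5 and 7671.5, and those in G1 10797 and 5406.5. When every progenitor was thinned to 2600 UMIs and scored again, the G1 difference was 8.60 points (0.360 to 19.5), and over 20 thinnings it ran from 4.14 to 14.1 points. Free RNA of cycling cells also enters such calls, and its part in them was not tested.

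G2M and S progenitors were compared within each library to see what the phase calls carry. Of 4731 genes with at least 20 UMIs over these 2 phases in each library, 58 (1.23%) were at least 2-fold higher in G2M in both libraries and 25 (0.528%) were at least 2-fold lower. The phase lists of the scoring tool hold 18 of those 58 and 9 of those 25, which the calls themselves fixed. Among the rest, plk1, the polo kinase of mitotic entry, was at 171 CPM in G2M and 18.6 CPM in S at 24hpa, and at 147 CPM in G2M and 9.47 CPM in S in uninjured tails. prc1.2, which bundles the microtubules of the central spindle, was at 45.5 and 3.98 CPM at 24hpa, and at 147 and 17.0 CPM in uninjured tails. zmcm3, a subunit of the replicative helicase, was lower in G2M, with 32.1 CPM in G2M and 158 CPM in S at 24hpa, and 38.1 and 174 CPM in uninjured tails.

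By list, mitosis genes (37 compared) had a median log2 ratio of G2M over S of 1.95 at 24hpa and 2.07 in uninjured tails, where all genes compared had -0.04 and -0.01. DNA replication genes (38 compared) had -0.71 and -0.62. The phases were called from replication and mitosis genes of these same cells. The values of these lists by phase, in G1 as well, thus follow in part from the calls and do not test them. Motile cilium genes (33 compared) lay near 0, at 0.14 and -0.15, so cells called S and G2M held the cilium programme at nearly the same level. Per 5000 UMIs a cell, the cilium genes had a median of 26.5 UMIs in G2M cells, 25.5 in S cells and 30.0 in G1 cells at 24hpa, and 19.0, 19.0 and 25.5 in uninjured tails. In G1 progenitors the replication genes summed to 909.9 CPM at 24hpa and 972 CPM in uninjured tails, against 4891 and 5675 CPM in S progenitors.

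**Figure D2:**
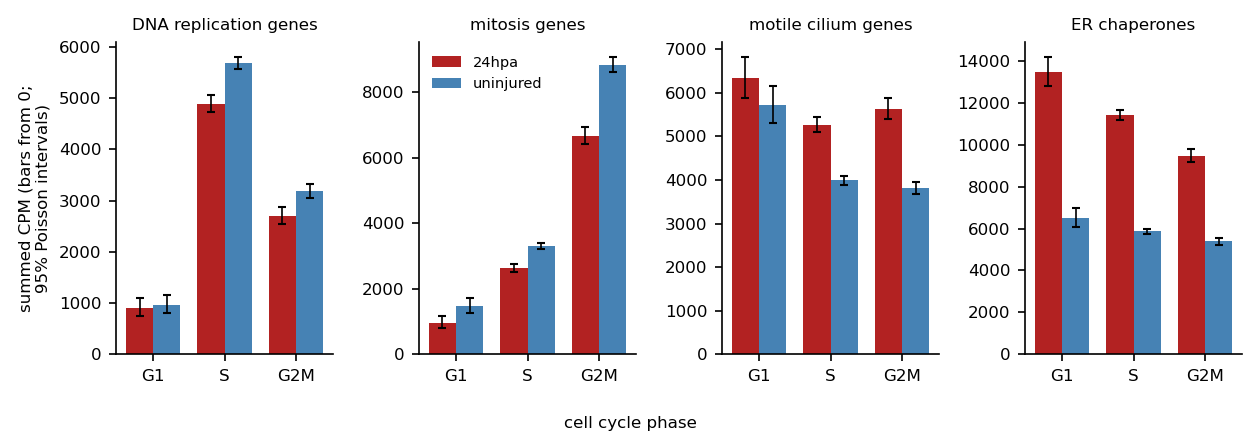
Summed CPM of 4 gene lists in progenitors by called phase (G1, S, G2M), as bars from 0 with 95% Poisson intervals, in the 24hpa library (left of each pair) and the uninjured library (right). Replication genes peaked in S, at 4891 CPM at 24hpa and 5675 CPM in uninjured tails, and mitosis genes in G2M, at 6669 and 8832 CPM. Both peaks follow in part from the phase calls, which used such genes. Cilium genes did not follow the phases in this way.

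Progenitors of the cord are patterned from dorsal to ventral by sets of transcription factors that exclude each other across domain borders. Their UMIs were few, so cells with at least 1 UMI were counted without thinning, and a cell with none is not one that lacks the gene. msx1, a dorsal factor, was found in 12 of 71 progenitors at 24hpa and 42 of 273 in uninjured tails. Of those, 11 of 12 at 24hpa and 31 of 42 in uninjured tails also had zic2, another dorsal factor, which was found in 19 of 71 and 79 of 273 cells overall. nkx6-2, a ventral factor, was found in 36 of 71 progenitors at 24hpa and 126 of 273 in uninjured tails, but in 3 of 12 and 2 of 42 of the cells with msx1. nkx2-2, of the most ventral neural domain, was found in 13 of 71 and 18 of 273 cells, and in 0 of the cells with msx1 in either library, which allows a share of up to 25% at 24hpa and 7.14% in uninjured tails. Its share of all progenitors, 18.3% and 6.59%, lay under these limits, so counts of 0 cannot show that the pair exclude each other.

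Of cells with the ventral factor nkx6-1, 19 of 25 at 24hpa and 58 of 85 in uninjured tails also had nkx6-2. The intermediate factors irx3 and irx5 shared 20 of the 27 irx3 cells at 24hpa and 59 of 97 in uninjured tails, where irx5 was in 33 of 71 and 85 of 273 cells overall. Other factors listed here under different domains were often found together. The dorsal zic2 was in 2 of 5 and 14 of 35 cells with the floor plate factor foxa2. nkx6-2 was in 12 of 27 and 47 of 97 irx3 cells, near its share of all progenitors. These pair counts were not matched for depth. The cluster thus held cells with dorsal, intermediate and ventral factors in both libraries. Thinned to 5000 UMIs, 15.6% of progenitors at 24hpa and 24.7% in uninjured tails had a UMI of zic2, against 0% and 0.724% of skeletal muscle cells. For msx1 these shares were 8.58% and 13.1% of progenitors, against 0.739% and 1.31% of muscle cells, and for nkx2-2 they were 8.55% and 3.95%, against 0% and 0%, where a count of 0 muscle cells allows up to 6.12% at 24hpa and 0.796% in uninjured tails.

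**Figure D3:**
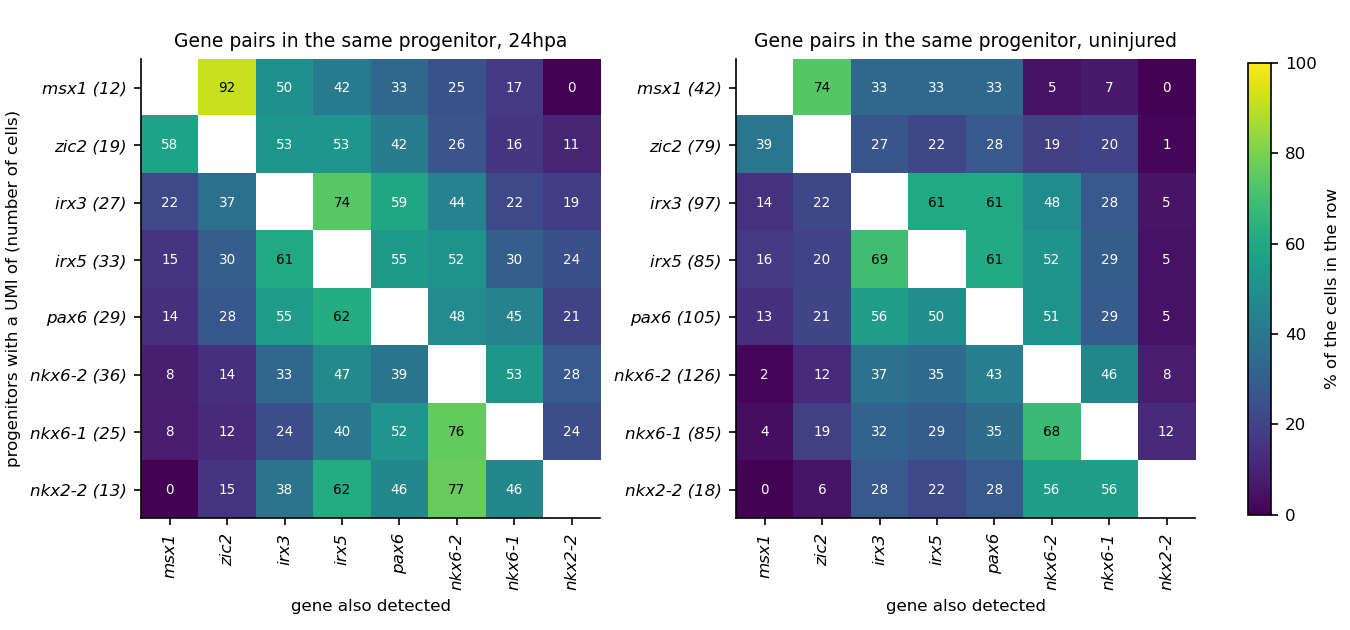
Share of progenitors with a UMI of the row's factor that also had a UMI of the column's factor, as a percentage, in the 24hpa library (left) and the uninjured library (right). Cells with msx1 had zic2 in 91.7% at 24hpa and 73.8% in uninjured tails, and nkx2-2 in 0% of both. nkx2-2 was in 18.3% and 6.59% of all progenitors, under the shares that such counts of 0 allow.

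As summed levels, most domain factors were lower at 24hpa. Of the 11 domain factors with at least 50 UMIs (3 dorsal, 4 intermediate, 4 ventral), 5 were at least 2-fold lower and 0 at least 2-fold higher at 24hpa, in a comparison where 405 of 5517 genes (7.34%) were lower and 252 (4.57%) higher. Among the lower ones were the dorsal factors zic2 (log2 ratio -1.21) and msx1 (-1.06), the intermediate factor dbx1 (-1.19) and the floor plate factor foxa2 (-1.46). zic2 had 41.2 CPM at 24hpa and 95.4 CPM in uninjured tails. nkx6-1 had 71.0 and 84.1 CPM (log2 ratio -0.24, -0.62 to 0.13), and nkx2-2 had 20.2 and 10.9 CPM (0.89, 0.04 to 1.74). Once cells were thinned to 5000 UMIs the ratios of zic2 and msx1 were -0.66 and -0.69, inside 2-fold, and without the deepest 10% of cells that of dbx1 was -0.74. The other neural cells had lower zic2 at 24hpa as well, at 1.48 CPM against 14.3 CPM.

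The comparison of 24hpa with uninjured progenitors had a median log2 ratio of -0.01 over the 5517 genes with at least 50 UMIs, and 11.9% of them differed at least 2-fold. Of the 252 higher genes, 33 (13.1%) had a higher CPM in free RNA than in progenitors at 24hpa, and 79 were also at least 2-fold higher in other neural cells. Of the 405 lower genes, 160 (39.5%) had a higher CPM in free RNA than in progenitors in uninjured tails, and 228 were also at least 2-fold lower in other neural cells. Over all 5517 genes compared, 1523 (27.6%) had a higher CPM in free RNA than in progenitors at 24hpa. That share is for the 24hpa library alone. In other neural cells, 819 of the 5517 differed at least 2-fold in the same direction as in progenitors. Other neural cells were a different mix of clusters in each library, which enters their ratios. The part of free RNA in these calls was not tested, beyond the count without it: 227 of the 252 and 339 of the 405 stayed at least 2-fold apart after an estimate of it was subtracted.

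c3, the central component of complement, stood out among the higher genes by both its level and its reach across cells. It was at 2893 CPM (3585 UMIs) in 24hpa progenitors and 303 CPM (724 UMIs) in uninjured ones, a log2 ratio of 3.26 (3.14 to 3.37). Thinned to 5000 UMIs, the median progenitor held 13 UMIs (range 1 to 74) at 24hpa and 1 UMI (range 0 to 13) in uninjured tails, and 42 of 64 cells at 24hpa against 2 of 230 in uninjured tails held 10 or more. Of thinned cells, 99.9% at 24hpa and 51.8% in uninjured tails had a UMI (98.6% and 61.9% before thinning), against 6.30% and 1.36% of skeletal muscle cells. The level was also higher at 24hpa in other neural cells, at 299 CPM against 96.2 CPM, most of all in Differentiating Neuron cells, at 1189 CPM against 70.7 CPM. Free RNA held 148 CPM at 24hpa and 25.8 CPM in uninjured tails.

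c3 belongs to the list of complement and injury signalling genes, of which 13 were compared. Of these, 2 were at least 2-fold higher at 24hpa (c3 and socs3) and 1 lower (the protease inhibitor gene a2ml1, with 1 UMI at 24hpa and 50 UMIs in uninjured tails), against the 4.57% and 7.34% of all genes, and the list's median log2 ratio was -0.16 in progenitors and 0.79 in other neural cells.

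Some matrix and protease genes were also among the higher ones. LOC100486298-like was at 222 CPM at 24hpa and 9.20 CPM in uninjured tails, a log2 ratio of 4.59 (3.96 to 5.29). RefSeq gives its gene number, without the -like ending, to bcan (brevican, a proteoglycan of neural matrix), and whether the entry is that gene was not tested. A UMI of it was found in 52.4% of thinned progenitors at 24hpa against 4.42% in uninjured tails (69.0% and 6.59% before thinning, and 2.39% and 2.13% in thinned muscle cells). vcan, the proteoglycan versican, was at 242 CPM at 24hpa and 38.9 CPM in uninjured tails (2.64, 2.30 to 2.99), with free RNA at 169 and 162 CPM. mmp14, a membrane-bound matrix protease, was at 121 and 31.4 CPM (1.95, 1.54 to 2.37), with free RNA at 109 and 29.2 CPM and a ratio of 1.24 without the deepest 10% of cells. plat, the tissue plasminogen activator, was at 229 and 36.4 CPM, and in other neural cells the ratio was larger, with 262 CPM at 24hpa and 9.00 CPM in uninjured tails.

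The suppressors of cytokine signalling showed the same direction. socs3 was at 253 CPM in 24hpa progenitors and 87.4 CPM in uninjured ones (log2 ratio 1.53, 1.27 to 1.79), and socs3-like.1 at 180.0 and 28.0 CPM (2.68, 2.28 to 3.10). Other neural cells had log2 ratios of 1.42 and 2.42 for these genes, and free RNA was at 345 and 160 CPM for socs3. Over the 20 genes of the matrix and protease list, 3 were at least 2-fold higher at 24hpa (vcan, mmp14 and cd44, the hyaluronan receptor, at 74.2 and 29.3 CPM) and 3 were lower (col9a1, lamb1 and col2a1), against the 4.57% and 7.34% of all genes, with a median log2 ratio of 0.02. With free RNA subtracted that median was 0.38, and col9a1 had no level left to compare. The subtraction took away all of col2a1 in uninjured progenitors, so 3 UMIs stood in for it. Its ratio of 5.08 is therefore a bound set by that stand-in and not a measured rise. Of the lower ones, the cartilage and notochord collagens col9a1 and col2a1 were far more abundant in free RNA, at 1609 and 2739 CPM in the uninjured library, than in progenitors, at 68.2 and 177 CPM.

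**Figure D4:**
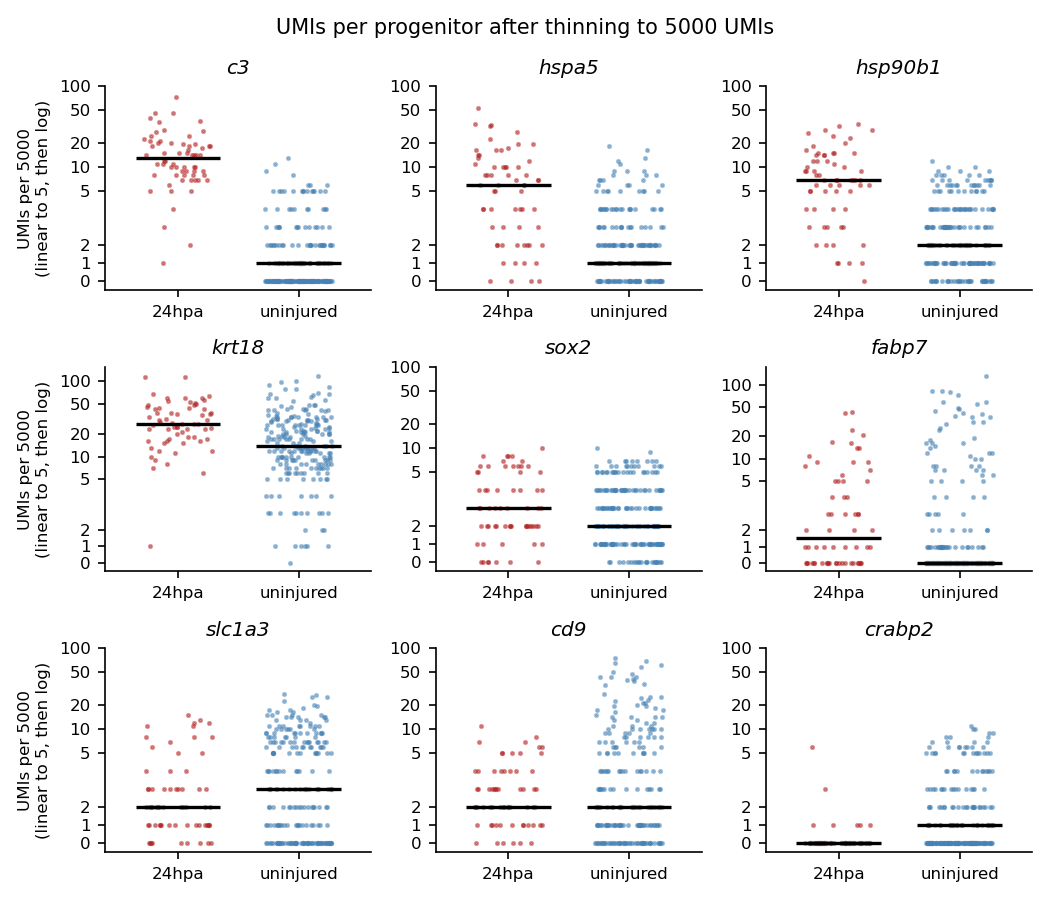
UMIs per progenitor thinned to 5000 UMIs for genes described in the text, with 1 point per cell, in the 24hpa library (left of each pair, 64 cells) and the uninjured library (230 cells). For c3 the median is 13 at 24hpa and 1 in uninjured tails, and the top uninjured cell, at 13, equals the median at 24hpa.

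Chaperones of the endoplasmic reticulum were higher in 24hpa progenitors, though this list was drawn up after hspa5 and hsp90b1 had been seen to be higher. Of its 16 genes, 6 were at least 2-fold higher and 0 lower, against 4.57% and 7.34% of all genes. The 6 include hspa5 and hsp90b1, which prompted the list. Its median log2 ratio was 0.73 in progenitors and -0.44 in other neural cells. hspa5, the lumenal Hsp70 known as BiP, was at 1794 CPM at 24hpa and 445 CPM in uninjured tails (2.01, 1.91 to 2.12), while other neural cells had 392 and 407 CPM. hsp90b1, the lumenal Hsp90, was at 1857 and 569.7 CPM (1.70, 1.61 to 1.80), while other neural cells had 360 and 466 CPM. pdia6, a disulfide isomerase, was at 815 and 293 CPM (1.48, 1.34 to 1.62). Another isomerase, p4hb, differed little, with 705 CPM in each library (-0.12 to 0.12).

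The chaperones also spread unevenly among cells. Thinned to 5000 UMIs, hspa5 had a median of 6 UMIs (range 0 to 53) at 24hpa and 1 UMI (range 0 to 18) in uninjured tails, and the whole list a median of 47.5 (16 to 180) and 26.0 (7 to 84). Cells rich in hspa5 tended to be rich in hsp90b1, with Pearson's r of 0.67 over 64 cells at 24hpa and 0.38 over 230 cells in uninjured tails, and in pdia6, with r of 0.69 and 0.41. Those cells share a library and a depth, so these values describe the cells and carry no test. The transcription factor gene ddit3 had a log2 ratio of -0.87 in progenitors and 2.05 in other neural cells, and atf4 -0.02 and 1.19. The list of amino acid stress and unfolded protein genes had 2 of 17 at least 2-fold higher in progenitors and 0 lower, against 4.57% and 7.34% of all genes. Its median log2 ratio was 0.25 in progenitors and 0.69 in other neural cells. Whether the unfolded protein response as a whole changed was not tested.

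Notch signalling keeps neighbouring progenitors from differentiating together. Of its 15 genes compared, 6 were at least 2-fold lower at 24hpa and 0 higher, against 7.34% and 4.57% of all genes. The list's median log2 ratio was -0.95 in progenitors and -0.94 in other neural cells. Among the target repressors, hey1 was at 19.4 CPM at 24hpa and 113 CPM in uninjured tails (-2.55, -3.22 to -1.95), hes4 at 45.2 and 235 CPM (-2.38, -2.80 to -1.98) and hes5.2 at 92.0 and 205 CPM (-1.16, -1.47 to -0.86, or -0.71 as a mean over cells). Free RNA, scaled to its own total, held 98.7 CPM of hey1 and 192 CPM of hes4 in the uninjured library. It was estimated to make up 8.69% of the UMIs of uninjured progenitors. hes1 did not share the direction, with 198 and 182 CPM (0.12, -0.11 to 0.35). The receptor notch1 was at 62.1 CPM at 24hpa and 172 CPM in uninjured tails (-1.46, -1.84 to -1.11), and the ligand dll1 at 8.88 and 17.6 CPM.

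Posterior Hox genes and their tail bud regulators give cells of the trunk and tail their position. Of 20 compared, 9 were at least 2-fold lower at 24hpa and 0 higher, against 7.34% and 4.57% of all genes. The median was -0.87 in progenitors and -0.99 in other neural cells. cdx2, which activates posterior Hox genes, was at 17.8 CPM at 24hpa and 97.0 CPM in uninjured tails (-2.45, -3.15 to -1.82), and hoxa13 at 46.0 and 129 CPM (-1.49, -1.92 to -1.08). hoxc10 was at 241 and 488 CPM (-1.02, -1.20 to -0.83). cdx4 and hoxc12 lay near 0, at -0.06 and 0.17, and lin28b, which represses let-7 maturation, had 115 CPM at 24hpa and 73.2 CPM in uninjured tails.

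A handful of uninjured progenitors held t, the brachyury gene that marks the tail bud and notochord. It was found in 0 of 71 cells at 24hpa (exact interval 0 to 5.06%) and in 12 of 273 uninjured cells (4.40%, exact interval 2.29 to 7.55). All 12 also held sox2, as did 258 of all 273 uninjured progenitors, and 4 were called in each phase. The 12 cells gave 5.34% of the uninjured progenitors' UMIs. They were singled out after these values had been seen. The upper limit at 24hpa lies inside the exact interval of the uninjured share.

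Several of the genes that were lowest at 24hpa were concentrated in those 12 cells. tnn, the matrix protein tenascin-N, had 0 UMIs at 24hpa and 305 UMIs (128 CPM) in uninjured progenitors, a log2 ratio of -5.72 or lower when 3 UMIs over the group stand for the 0. Only 22 uninjured cells held it, and the 12 cells with t carried 58.4% of its UMIs. Without the cells with t the bound was -4.53. lrat, which esterifies retinol, had 1 UMI at 24hpa and 114 UMIs (47.7 CPM) in uninjured progenitors (-5.88, -11.2 to -3.38), with 33.3% of its uninjured UMIs in the 12 cells. ventx2.2, a ventral homeobox factor of the early embryo, had 0 and 58 UMIs, with 44.8% in the 12 cells, and the membrane protein gene cd9 was at 4356 CPM in them and 1232 CPM in the other 261 progenitors.

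Other low genes were spread more widely. crabp2, which carries retinoic acid to its nuclear receptor, was at 33.1 CPM at 24hpa and 363 CPM in uninjured tails (-3.46, -3.94 to -3.00, or -2.48 once cells were thinned), and the 12 cells with t gave 1.84% of its UMIs. It had a UMI in 12.5% of thinned 24hpa progenitors and 55.2% of uninjured ones (23.9% and 60.1% before thinning), against 0.563% and 2.11% of muscle cells. The retinoic acid receptor rarg-like.1 was at 115 CPM at 24hpa and 251 CPM in uninjured tails. Of the 5 retinoid genes compared, 3 were at least 2-fold lower at 24hpa and 1 at least 2-fold higher, against 7.34% and 4.57% of all genes. This list was put together after crabp2 and lrat had been seen.

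epha4, a guidance receptor for ephrins, was at 1.61 CPM (2 UMIs) at 24hpa and 54.0 CPM (129 UMIs) in uninjured tails (-5.06, -8.12 to -3.18, or -3.01 once cells were thinned), while other neural cells had 19.2 and 105 CPM. sgk1, a kinase induced by serum and corticosteroids, had 31 UMIs at 24hpa and 629 UMIs (263 CPM) in uninjured tails (-3.39, -3.96 to -2.87), with free RNA at 86.2 and 309 CPM. otos, itln1 and LOC549413 (krt12.3 in RefSeq) were also among the 12 lowest. Their free RNA in the uninjured library, at 1605.5, 887 and 836 CPM, was over 10 times their progenitor level of 87.0, 69.9 and 58.6 CPM.

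**Figure D5:**
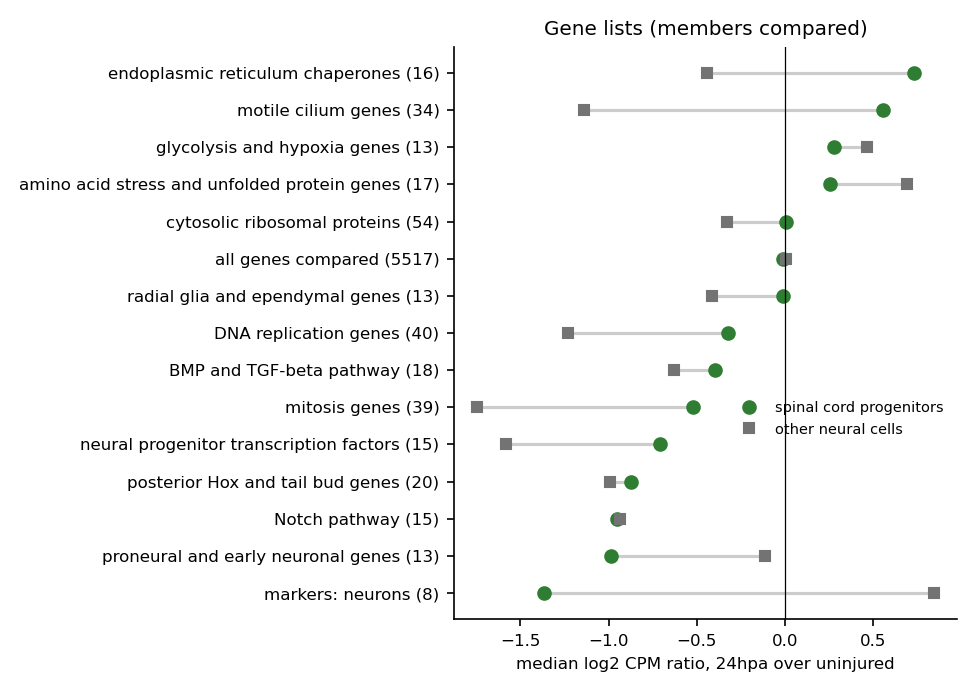
Median log2 ratio of 24hpa over uninjured for 14 gene lists and for all genes compared, in progenitors (circles) and in other neural cells (squares), with the number of genes compared in parentheses. Cilium genes (0.55 against -1.14) and chaperones of the endoplasmic reticulum (0.73 against -0.44) lay on opposite sides of 0 in the 2 sets of cells, and Notch genes (-0.95 against -0.94) on the same side. Other neural cells were a different mix of clusters in each library, with 1 Floor Plate cell at 24hpa and 23 in uninjured tails.

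The cilium genes were among the few lists higher at 24hpa. Of 34 compared, 5 were at least 2-fold higher and 0 lower, against 4.57% and 7.34% of all genes. The list's median log2 ratio was 0.55 in progenitors and -1.14 in other neural cells, a different mix of clusters in each library. The higher ones included the tektins tekt1 (111 CPM at 24hpa and 38.1 CPM in uninjured tails) and tekt4 (93.6 and 36.8 CPM), the dynein chain dnai2 (132 and 56.9 CPM) and ccdc39 (88.8 and 41.8 CPM), which sets the axonemal repeat. The master factor foxj1 had a log2 ratio of 0.59 (0.28 to 0.91), but the ciliary regulator rfx2 (-0.56, -0.97 to -0.16) and the inner arm dynein dnah7 (-0.84, -1.18 to -0.51) were lower. Thinned to 5000 UMIs, the median progenitor held 26.0 cilium UMIs (range 8 to 58) at 24hpa and 19.0 (range 0 to 56) in uninjured tails, and the cells of the 2 libraries overlapped widely. Floor Plate held 6623 CPM of the cilium genes at 24hpa (1 cell) and 4076 CPM in uninjured tails (23 cells). Dopaminergic Neurons held 1809 and 1772 CPM. Each remaining neural cluster was lower at 24hpa, most of all Differentiating Neuron at 774 and 1317 CPM. In the others the counting intervals of the 2 libraries overlapped, as with Vulnerable Motor Neuron at 448 (387 to 517) and 457 (419 to 498) CPM.

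Among the progenitor transcription factors, 3 of 15 were at least 2-fold lower at 24hpa and 0 higher, against 7.34% and 4.57% of all genes. sox3, the partner of sox2 in the SoxB1 family, was at 297 CPM at 24hpa and 577 CPM in uninjured tails (-0.96, -1.13 to -0.79), where sox2 had a log2 ratio of 0.17 (0.04 to 0.29). The 3 were sox9 (11.3 and 37.6 CPM), which promotes glial fate, zeb2 (35.5 and 85.7 CPM) and the Myc family gene mycn (31.5 and 64.8 CPM). Of 13 radial glia and ependymal genes, nes, the intermediate filament nestin, was 2-fold higher (89.6 and 44.8 CPM), and prom1, cd9 and slit1 were at least 2-fold lower. The glutamate transporter slc1a3 was at 609 and 1095 CPM (-0.85, -0.96 to -0.73), fabp7, the brain lipid-binding protein of radial glia, at 1105 and 1302 CPM, and vimentin (vim) at 920.0 and 986 CPM.

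DNA replication genes had a median log2 ratio of -0.32, with 3 of 40 at least 2-fold lower and 0 higher, and mitosis genes had -0.52, with 4 of 39 lower and 0 higher. In other neural cells those medians were -1.23 and -1.75. Cyclin gene ccna2 was at 79.1 CPM in 24hpa progenitors and 184 CPM in uninjured ones (-1.22, -1.55 to -0.90), and pcna, the sliding clamp, at 549 and 720 CPM (-0.39, -0.52 to -0.26). Their shares of lower genes lay near the 7.34% of all genes compared.

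The Wnt and BMP lists held members in both directions, where 4.57% of all genes were higher and 7.34% lower. Of the 8 FGF and 4 Hedgehog genes compared, 0 were at least 2-fold higher. Beside a share of 4.57%, lists this short say little by a count of 0. Of 12 Wnt genes compared, wnt11 (189 CPM at 24hpa and 87.4 CPM in uninjured tails) and its receptor ror2 were at least 2-fold higher, and sp5l, wnt11b, wif1, wnt5b and fzd7 were at least 2-fold lower. Of 18 BMP and TGF-beta genes, tgfb2 was higher (32.3 and 13.0 CPM, though its log2 ratio was 0.26 once cells were thinned), and acvr2b, bmp2, bmpr1a and msx1 were lower. Of 8 FGF genes, the feedback inhibitor spry1 (6.46 and 49.4 CPM), the phosphatase dusp6 and the receptor fgfr1 (73.4 and 157 CPM) were lower. Of 4 Hedgehog genes, 0 were past 2-fold either way.

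Of 13 proneural and early neuronal genes, 6 were at least 2-fold lower in 24hpa progenitors and 0 higher, against the 7.34% and 4.57% of all genes. The 25 matched genes of the list summed to 1048 CPM at 24hpa and 1505 CPM in uninjured tails, below their free RNA level of 1642 and 1699 CPM. neurog1, a proneural factor, was at 73.4 CPM at 24hpa and 230.1 CPM in uninjured tails (-1.65, -1.98 to -1.33), and neurod1, which acts after it, at 2.42 CPM (3 UMIs) and 35.1 CPM (84 UMIs). The RNA-binding protein gene elavl4 was at 14.5 and 69.0 CPM, below its free RNA level of 93.7 and 213 CPM. Per 5000 UMIs the list's median cell held 4.5 UMIs (range 0 to 16) at 24hpa and 4.0 (range 0 to 34) in uninjured tails, so the sums differed in the upper cells more than in the median cell.

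Immediate early genes, which cells switch on soon after a stimulus, and heat shock genes went both ways. Of 21 compared, 7 were at least 2-fold lower at 24hpa and 4 higher, against 7.34% and 4.57% of all genes. The median log2 ratio was -0.21 (0.01 with free RNA subtracted), and the 32 matched genes summed to 9983 CPM at 24hpa and 6998 CPM in uninjured tails. fos was at 166 CPM at 24hpa and 437 CPM in uninjured tails, with free RNA at 362 and 836 CPM, and egr1 at 6.46 and 36.0 CPM. The 4 higher genes were hspa5 and hsp90b1, described above, with hsph1, a cytosolic exchange factor for Hsp70, and fosl1. Ribosomal protein genes gave a level baseline, with 1 of 54 past 2-fold and a median of 0.00.

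Lastly, the spread among progenitors of 1 library was measured by the Fano factor, the variance of a gene's UMIs over its mean, in cells thinned to 5000 UMIs. Of 3918 genes with a mean of at least 0.1 UMI per cell in both libraries, 86 (2.19%) had a Fano factor of at least 2 in both, where the median gene had 1.08 at 24hpa and 1.08 in uninjured tails. krt18 and krt8, a pair of simple-epithelium keratins, were among the highest. krt18 had a Fano factor of 15.1 at 24hpa and 17.3 in uninjured tails, with a median of 27 UMIs (range 1 to 113) at 24hpa and 14 (range 0 to 116) in uninjured tails. The keratins followed each other from cell to cell, with Pearson's r of 0.83 at 24hpa and 0.88 in uninjured tails, and progenitors held 6288 CPM of krt18 at 24hpa and 4056 CPM in uninjured tails, against 673 and 1238 CPM in other neural cells.

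fabp7 was spread unevenly among the progenitors in both libraries. Its Fano factor was 14.9 at 24hpa and 41.1 in uninjured tails, and 9 of 64 thinned cells at 24hpa and 34 of 230 in uninjured tails held 10 or more UMIs, while the median cell held 1.5 and 0. A UMI of it was found in 64.1% of thinned 24hpa progenitors and 37.6% of uninjured ones (77.5% and 43.6% before thinning), against 1.93% and 6.37% of muscle cells. Its level followed that of slc1a3 from cell to cell, with r of 0.36 over 64 cells at 24hpa and 0.53 over 230 cells in uninjured tails. cd9 had 10 or more UMIs in 1 of 64 thinned cells at 24hpa and 49 of 230 in uninjured tails.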

How the data were processed

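The authors counted UMIs with Cell Ranger from 10x 3' libraries of version 2 chemistry and deposited raw UMI counts for each gene and barcode, not normalized. The genome build behind the counts is not clear from the sources used here, so no coordinates or sequences are given. With Seurat the authors kept cells with over 500 genes, integrated both libraries, chose the neural clusters by sox2, neurog1, neurod1 and elavl4, clustered those cells again and deposited cluster names, S and G2M scores and phase calls. Per the file headers, 27 further columns hold embeddings or other clusterings and were not used. Gene names came from the deposited gene table, which names 12993 of 14374 IDs, and RefSeq names were used for LOC symbols where a match was found. Such matches used the gene number alone and passed over a -like ending.

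Counts were summed over progenitors in each library and divided by their total. A gene was compared at 50 or more UMIs over both libraries and called at a 2-fold ratio. A sum of 0 was replaced by 3 UMIs over the group, which makes the ratio a bound. What a count of 0 allows was set likewise, as 3 over the number of cells or UMIs. The share of cells with t has an exact interval instead. Intervals are exact Poisson and conditional intervals for counts, Clopper-Pearson intervals for shares and Newcombe intervals for differences of shares, all at 95%, and they cover counting error only. Thinned shares are expected values over random draws, and thinned counts per cell come from 1 seeded draw. Doublets were called with Scrublet in scanpy 1.11.5, phases were scored again in Seurat 5.3.0 under R 4.3.3, and TMM factors came from edgeR 4.0.16, with no model fitted. The scripts, in Python 3.11.15 and scipy 1.17.1, were tested on simulated data. A few genes are counted in their lists but not reported here by name.

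Members and lists were chosen with earlier results of these data known. Genes were named by rule: the markers, per list the 4 most abundant members and up to 4 called members furthest from 0, the 12 highest and 12 lowest genes at 24hpa by the interval bound nearest 0, the 10 highest and 6 lowest against other neural cells, the 6 highest and 6 lowest in G2M against S, the 8 most variable, and genes the study itself names in progenitors. Genes named beyond this, to complete a count or as exceptions, were chosen after their values were seen, as were the lists of retinoid genes, of chaperones of the endoplasmic reticulum and of Eph receptors. Alternatives varied scaling, averaging, count filters, cells, depth, free RNA, phase makeup and the call.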

Additional observations from a re-analysis of the deposited data

Results flagged for a closer look

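The genes given here differed at least 2-fold between 24hpa and uninjured tails in opposite directions in progenitors and in the pooled other neural cells. Each pair of values is the log2 ratio of 24hpa over uninjured, with 1 library per group, and the difference between the 2 sets of cells was not tested. Other neural cells were a different mix of clusters in each library.

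Higher in progenitors and lower in other neural cells were the chaperone genes dnajc3 (1.70 in progenitors and -1.38 in other neural cells) and pdia4 (1.02 and -1.11) and the cilium gene dnai2 (1.22 and -1.42). Lower in progenitors and higher in other neural cells were tnn (-5.72, a bound, and 2.73), the adhesion gene epcam (-2.70 and 2.15), mycn (-1.04 and 1.99) and the neuronal gene stmn2 (-1.93 and 1.39). Free RNA held 504 CPM of epcam at 24hpa and 429.7 CPM in the uninjured library, above its 5.65 and 36.8 CPM in progenitors, and 645 and 509 CPM of stmn2, above its 38.7 and 148 CPM. In other neural cells at 24hpa tnn was at 13.8 CPM, against 2.08 CPM in those of uninjured tails.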

How the results depend on the processing

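No paired analysis was possible because each group has 1 library, and no replicate could be left out. The counts of genes past 2-fold followed the filters. At 24hpa against uninjured, with 252 higher and 405 lower, they were 475 and 730 with at least 20 UMIs, 70 and 112 with at least 200 UMIs, 164 and 263 in cells thinned to 5000 UMIs, and 68 and 151 where the whole interval had to lie past 2-fold. With genes above their free RNA level only, an alternative chosen after seeing the data, 213 were higher and 240 lower. Without the cell holding most UMIs of each gene, 202 were higher and 517 lower. Library totals were left unchanged in that setting, and 1 cell is a larger part of 71 than of 273. It thus tends to lower the 24hpa side by construction. Against other neural cells, with 657 higher and 995 lower, there were 1003 higher genes with at least 20 UMIs, and 186 higher and 387 lower with at least 200. In G2M against S, with 58 higher and 25 lower, there were 95 and 50 with at least 10 UMIs, 27 and 13 with at least 50 UMIs, and 38 lower by the mean over cells. Genes with a Fano factor of at least 2 numbered 41 in cells thinned to 2600 UMIs, against 86. The G1 difference was 7.80 points (0.181 to 18.3) when phases were scored again.

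With free RNA subtracted, 2 named genes changed sign, col2a1 at 5.08 and the muscle gene mylpf at 2.94 on the log2 scale. The value for col2a1 is a bound, since no level was left in uninjured progenitors and 3 UMIs stood in. Of 217 named genes, those that moved numbered 68 in thinned cells, 40 by the mean over cells, 26 without the deepest 10% of cells and 4 without the cells with t (both chosen after seeing the data), 14 without the top cell, 11 with free RNA subtracted, and 0 with TMM scaling or phase weights. List medians moved in 21 of 32 lists by the mean over cells and in 0 with TMM scaling. With free RNA subtracted 8 of 31 moved, and 2 changed sign: notochord markers at 0.57 (3 of 5 genes left, against -1.27) and markers of epidermis and secretory cells at 0.30 (2 of 5, against -2.27). By the mean over cells zeb2 was at -0.76, slit1 at -0.86 and tekt4 at 0.96, and thinned cells gave wnt11b -0.79, dusp6 -0.59 and hey1 -1.78. The cause was not tested in any of these. Depth limits the 24hpa side most, with 71 cells and a floor of 2.42 CPM.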

Other observations

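A few progenitor genes belonged to none of the comparisons above. Glycolysis and hypoxia genes (13 compared) had a median log2 ratio of 24hpa over uninjured of 0.28 in progenitors and 0.46 in other neural cells, and 1 was past 2-fold in progenitors, hk1 (21.8 CPM at 24hpa and 49.4 CPM in uninjured tails). gapdh, a glycolytic enzyme, was at 893 CPM at 24hpa and 548 CPM in uninjured tails, with free RNA at 4725 and 3214 CPM. Progenitors held less of these genes than other neural cells, with 11 of 15 at least 2-fold lower in both libraries, where 17.7% of all genes were. The list of amino acid stress and unfolded protein genes had a median of 0.25 in progenitors and 0.69 in other neural cells, and its 2 members past 2-fold in progenitors, pdia4 and pdia6, also stand in the chaperone list. mthfd2, a mitochondrial folate enzyme, was at 101 CPM at 24hpa and 136 CPM in uninjured tails in progenitors, a log2 ratio of -0.43, where other neural cells had 1.94. Over all 32 lists, 105 of 420 memberships compared were past 2-fold, 20 higher and 85 lower, against 11.9% of all genes either way. A gene in several lists counts once in each. The total takes in the retinoid, chaperone and Eph lists, drawn up after values had been seen, such as chaperones with 6 of 16 higher. It also takes in marker lists of other cell types. Of the skeletal muscle markers 5 of 6 were lower, and free RNA held 33512 CPM of them in the uninjured library, against 2926 CPM in progenitors. The total is therefore not a like comparison with all genes.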
